A study of Homo sapiens with 12 samples.

Results

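The enzymes and helpers that finish and crosslink collagen were examined in TMZ-sensitive and TMZ-resistant glioblastoma cells. They are 10 genes chosen by symbol among the 58174 gene identifiers of the deposited tables: the lysyl oxidases LOX, LOXL1, LOXL2, LOXL3 and LOXL4, the lysyl hydroxylases PLOD1, PLOD2 and PLOD3, the collagen chaperone SERPINH1 and the procollagen C-proteinase enhancer PCOLCE. The mRNA-seq covered U87 and U118, which are established human glioblastoma cell lines, with 3 libraries each of U87 sensitive, U87 resistant, U118 sensitive and U118 resistant cells (12 in all). The resistant cells had been kept in temozolomide (TMZ), an alkylating drug, at 50 μM, while the sensitive cells of the same line were the comparison. According to the methods, the cells had been depleted of CD133+ and CD15+ cells and grown with serum and BMP2. The methods name the sequenced cells control and aggregation cells, so the resistant cells are taken here to be the aggregations. The paper describes aggregations as rare, arising from surviving cells after weeks of growth retardation. Neither the labels nor the methods say whether the 3 libraries of a group came from separate cultures, so the spread between them may be technical.

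Fibrillar collagen is modified in the endoplasmic reticulum and crosslinked outside the cell. Lysyl hydroxylases add hydroxyl groups to lysines of the new chain, and SERPINH1 (HSP47) binds the folded triple helix until it leaves for the Golgi. After secretion, BMP1-type proteinases cut off the C-propeptide with help from PCOLCE. The copper-dependent lysyl oxidases then oxidise lysine and hydroxylysine side chains, from which the covalent crosslinks that stiffen collagen and elastin form. LOX and PLOD2 are known targets of hypoxia-inducible factors.

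Start-site sequences are shown for LOX, PLOD2 and LOXL3, the members that stood higher in U87 resistant cells and lower in U118 resistant cells with no overlap between the groups and differed between the lines by test, other than LOXL1, whose window lies wholly in annotated exons. They come from the RefSeq promoter table (GRCh38.p14), on the minus strand, and run 5′ to 3′ within the 250 bases before the outermost listed start. Only stretches outside every GENCODE release 29 exon are printed. Capitals mark the letters ACGTG or GCGTG on either strand, the core that hypoxia-inducible factors are known to bind. The LOX stretch, chr5:122078361-122078509, lies upstream of the annotated gene. The PLOD2 window, chr3:146161185-146161434, lies in an intron of the annotated PLOD2 transcript that starts furthest upstream. The LOXL3 stretch, chr2:74553962-74554085, lies in introns of LOXL3 and of DOK1 on the opposite strand.
LOX: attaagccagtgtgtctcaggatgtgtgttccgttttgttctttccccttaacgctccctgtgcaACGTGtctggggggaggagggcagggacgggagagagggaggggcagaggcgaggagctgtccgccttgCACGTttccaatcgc
PLOD2: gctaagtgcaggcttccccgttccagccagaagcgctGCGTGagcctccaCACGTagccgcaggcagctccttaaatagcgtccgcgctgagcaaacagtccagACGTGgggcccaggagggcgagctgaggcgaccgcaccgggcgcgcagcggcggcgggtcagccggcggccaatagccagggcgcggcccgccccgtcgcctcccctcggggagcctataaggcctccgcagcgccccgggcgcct
LOXL3: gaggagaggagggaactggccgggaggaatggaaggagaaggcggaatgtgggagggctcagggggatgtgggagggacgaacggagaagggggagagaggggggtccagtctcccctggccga

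Of the 9 members with a window in the table, 4 held the letters at least 1 time in the 250 bases. LOX held 4 matches, beginning 185, 116, 98 and 42 bases before the start. The last pair of these lies in annotated exons and is not printed. PLOD2 held 3 matches, 213, 200 and 146 bases before its start, PLOD1 and PCOLCE held 2 each, and LOXL1, LOXL3, LOXL4, PLOD3 and SERPINH1 held none. Of all 35116 windows in the table, 43.2% held at least 1 match, 7.76% at least 3 and 3.22% at least 4, so a match is common and is only a description of the letters. LOXL2 had no entry.

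Some facts about the libraries bear on every result. Libraries of 1 group had a Spearman's rho of 0.960 to 0.988 with each other over 16382 genes, given as a description with no p. The libraries labelled U118 resistant had a rho of 0.808 to 0.839 with U118 sensitive libraries, but of 0.895 to 0.909 with U87 sensitive and 0.907 to 0.913 with U87 resistant libraries. Of 86 genes at 10 TPM or more in all U87 sensitive libraries and at 0.5 TPM or less in all U118 sensitive libraries, 41 (47.7%) were at 10 TPM or more in all 3 libraries labelled U118 resistant. Of 157 genes with the reverse pattern, 96 (61.1%) were at 0.5 TPM or less there. Of 8 mesenchymal markers, THY1 was at 51.2 to 104 TPM there, below U118 sensitive (213 to 459 TPM) but above any U87 library (at most 0.127 TPM). ACTA2 was at 4.19 to 6.11 TPM in U118 sensitive, 115 to 131 TPM in U118 resistant and 243 to 350 TPM in U87 libraries. In the same order S100A4 was at 122 to 501, 6.97 to 12.3 and 15.2 to 23.3 TPM. TAGLN was at 15.2 to 26.9, 1.94 to 4.86 and 0.994 to 4.88 TPM. The U118 comparison and the difference between the lines rest wholly on the libraries labelled U118 resistant, and the U87 comparison does not use them. Their part in the results was not tested.

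The mitochondrial share of the TPM was 12.9% to 16.9% in U87 sensitive, 22.2% to 23.7% in U87 resistant, 7.42% to 19.7% in U118 sensitive and 13.2% to 29.9% in U118 resistant libraries. The lowest of the last group was replicate 1, in which 9 of the 10 members were at their highest of the 3 libraries. That library also had 15193 genes at 1 TPM or more, against 13270 and 13545 in the others. The share of all genes at their highest there was not worked out, so the count is not particular to the members. Of the glial markers, GFAP did not pass 0.693 TPM in any library and AQP4 and SOX10 were at 0 in all 12, while NES ranged from 5.76 to 24.1 TPM, SLC1A3 reached 9.56 TPM and OLIG2 4.45 TPM. Among 8 mesenchymal markers, VIM stood at 4425 to 7149 TPM. Others were low in some groups, with THY1 at most 0.127 and TAGLN at most 4.88 TPM in U87, and ACTA2 at most 6.11 TPM in U118 sensitive libraries. The leukocyte marker PTPRC did not pass 0.0689 TPM. The summed level was 9.74 to 35.5 TPM for 9 glial and 5031 to 7983 TPM for the mesenchymal markers, the latter mostly VIM. It was at most 2.16 TPM for 5 leukocyte, at most 3.71 TPM for 4 endothelial and 1.60 to 19.6 TPM for 5 epithelial markers.

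Levels are in TPM, which is scaled for transcript length and to a fixed total per library, so that genes can be set side by side but depth is unknown. In U87 sensitive cells the highest member was LOXL1 (184 ± 7.86 TPM, SD, n = 3), followed by PLOD1 (163 ± 9.27). PCOLCE, PLOD3, SERPINH1 and LOXL2 followed between 107 and 131 TPM, each overlapping the next in its range over libraries. LOX, PLOD2 and LOXL3 stood far lower, at 14.95 ± 4.25, 14.3 ± 6.68 and 8.96 ± 0.504 TPM, and LOX and PLOD2 overlapped. In U87 resistant cells LOXL2 led with 296 ± 14.5 TPM, above PLOD1 (236 ± 9.59) and LOXL1 (233 ± 6.64), whose ranges overlapped.

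In U118 sensitive cells the order was another one. PCOLCE led with 422 ± 36.8 TPM, followed by PLOD1 (202 ± 20.8) and LOXL1 (181 ± 12.4), which overlapped. SERPINH1, PLOD3, LOX, LOXL3 and PLOD2 ran from 135 down to 73.4 TPM with every neighbour overlapping the next, and LOXL2 was the lowest of the 9 detected members, at 51.4 ± 1.84 TPM. In the libraries labelled U118 resistant PLOD1 led (293 ± 42.7 TPM), PCOLCE and LOXL2 followed with overlapping ranges, and PLOD2, LOXL3 and LOX were the lowest detected members (38.2 ± 13.7, 32.6 ± 8.96 and 29.1 ± 13.6 TPM), each overlapping the next. LOXL4 was near absent throughout, with at most 0.0101 TPM in U87 and 0.247 TPM in U118. The lines come in separate tables, and levels of the lines are given side by side with no test.

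**Figure D1:**
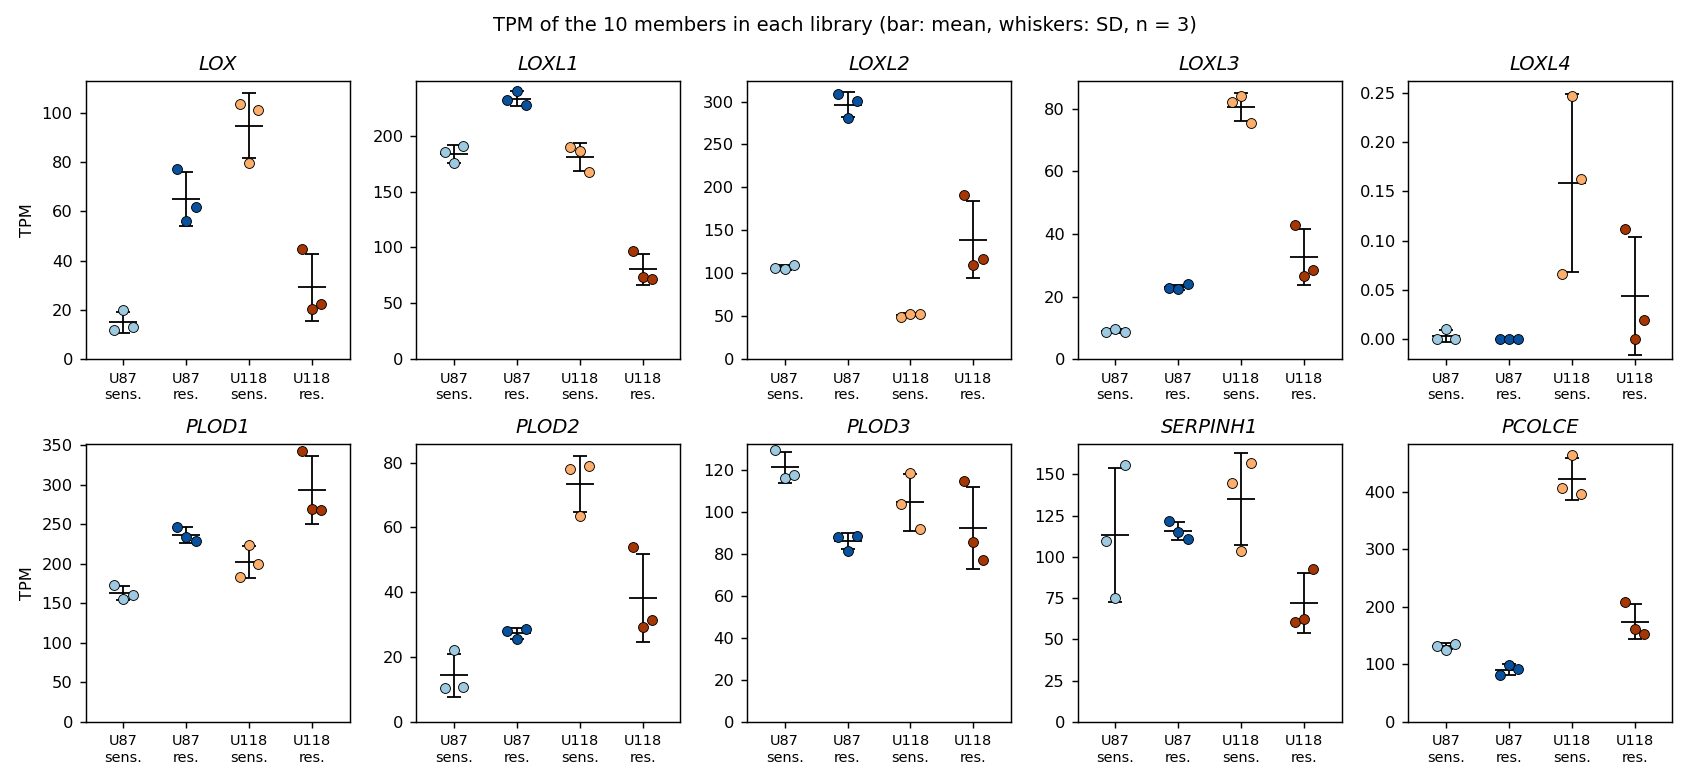
TPM of each of the 10 members (vertical axis, linear, own scale per panel) in the 3 libraries of U87 sensitive, U87 resistant, U118 sensitive and U118 resistant cells; points are libraries, bars are means and whiskers SDs. LOXL2 stood higher in all resistant than in all sensitive libraries of each line, whereas LOX, LOXL1, LOXL3 and PLOD2 did so in U87 only and stood lower in all libraries labelled U118 resistant.

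Which members changed with resistance was asked within each line with limma on log2(TPM + 1), for genes that reached 1 TPM in 3 or more libraries of the line. A call needed an adjusted p (Benjamini-Hochberg over all genes tested) under 0.05 and a log2 fold change of 1 or more in either direction, and "rose" and "fell" are used only for called genes. LOXL4 did not pass the filter, so 9 of the 10 members were tested in each line. In U87, 3 members rose (LOX, LOXL2 and LOXL3) and 0 fell (2 were lower at an unadjusted p under 0.05), where 3.03% of the 13845 genes tested were called higher and 7.79% lower. With no fold change threshold, limma gave 6 members higher and 2 lower in U87, against 9.43% and 29.7% of all genes. In U118, 1 member rose (LOXL2) and 4 fell (LOX, LOXL1, LOXL3 and PCOLCE), where 8.64% of the 15527 genes tested were called higher and 26.6% lower.

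Over all genes tested the log2 fold change had a median of -0.24 in U87 and -0.52 in U118, and changes are to be read against these. Scaling each library by its median ratio to the others brought the medians to -0.01 and -0.02. Under it PLOD2 was called higher in U87 beside the 3 members named. In U118 it left 2 members called higher, LOXL2 and PLOD1, and 1 called lower, LOX, so the U118 calls of LOXL1, LOXL3 and PCOLCE depend on the scaling. The shares of all genes called, given here for the unscaled fit, do not carry over to median-ratio scaling. Counts under that scaling, for the members and for the lists below, therefore have no such share beside them. In bulk RNA, fewer cells with a transcript and less of it per cell cannot be told apart.

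LOX, the founding lysyl oxidase, was at 11.9, 19.8 and 13.1 TPM in the U87 sensitive libraries and at 77.3, 56.1 and 62.0 TPM in the resistant ones. In U118 it was at 104, 79.6 and 101 TPM in sensitive and 44.7, 20.2 and 22.3 TPM in resistant libraries. The groups did not overlap in either line, and the order was opposite. The mean level was 4.35 times as high in resistant as in sensitive U87 cells, and 3.26 times as high in sensitive as in resistant U118 cells. The log2 fold change was 2.07 in U87 (SE 0.21, adjusted p = 0.000498) and -1.75 in U118 (SE 0.31, adjusted p = 0.00160), and both calls held under median-ratio scaling (2.32 and -1.20).

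LOXL2, a lysyl oxidase with scavenger receptor domains, was the member that rose in both lines. It was at 106, 105 and 109.7 TPM in U87 sensitive and 309, 280.3 and 300.2 TPM in U87 resistant libraries. In U118 it was at 49.4, 52.8 and 52.2 TPM in sensitive and 191, 109.6 and 116 TPM in resistant libraries. Every resistant library of a line was above every sensitive one, with replicate 1 of U118 resistant standing apart. The log2 fold change was 1.46 in U87 (SE 0.07, adjusted p = 4.91e-05) and 1.37 in U118 (SE 0.25, adjusted p = 0.00188), and without U118 resistant replicate 1 it was 1.12. Of the 13217 genes tested in both lines, 134 (1.01%) were called higher in both.

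LOXL3, another member with scavenger receptor domains, was at 8.80, 9.52 and 8.55 TPM in U87 sensitive and 22.8, 22.4 and 23.9 TPM in U87 resistant libraries. In U118 it was at 82.1, 84.1 and 75.6 TPM in sensitive and 42.8, 26.5 and 28.4 TPM in resistant libraries. As for LOX, the groups were apart in each line and the order was opposite. The log2 fold change was 1.27 in U87 (SE 0.11, adjusted p = 0.000274) and -1.31 in U118 (SE 0.23, adjusted p = 0.00174), the latter -0.76 and no longer called under median-ratio scaling. LOX and LOXL3 are 2 of the 88 genes (0.666% of those tested in both lines) called higher in U87 and lower in U118.

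LOXL1, the paralog known for its part in elastic fibres, was at 185, 175 and 191 TPM in U87 sensitive and 232, 240.4 and 227 TPM in U87 resistant libraries. These groups did not overlap, but the log2 fold change of 0.34 (SE 0.06, adjusted p = 0.00598) was below the fold threshold. In U118 it fell, from 190.4, 186 and 167 TPM to 96.6, 73.2 and 71.4 TPM, with a log2 fold change of -1.17 (SE 0.21, adjusted p = 0.00163). That call was lost under median-ratio scaling (-0.62) and in TPM recomputed without mitochondrial genes (-0.98).

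The makeup of the lysyl oxidase family is a ratio within a library and does not depend on the scaling. LOXL2 made up 34.0% ± 0.0917 of the summed TPM of the 5 lysyl oxidases in U87 sensitive and 48.0% ± 1.09 in U87 resistant libraries (SD, n = 3). In U118 its share was 12.6% ± 0.886 in sensitive and 49.1% ± 1.57 in resistant libraries. LOXL2 thus had the largest share in every resistant library, where LOXL1 had it in every sensitive library. The share of LOXL1 was 58.4% and 37.8% in U87 and 44.4% and 29.2% in U118, sensitive and resistant in turn. The share of LOX was 4.77% and 10.5% in U87 but 23.2% and 10.04% in U118. The summed level was 314 ± 6.73 and 618 ± 21.1 TPM in U87, and 408 ± 15.3 and 281 ± 81.5 TPM in U118, where resistant replicate 1 held 375 TPM and the others 229.5 and 238 TPM.

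**Figure D2:**
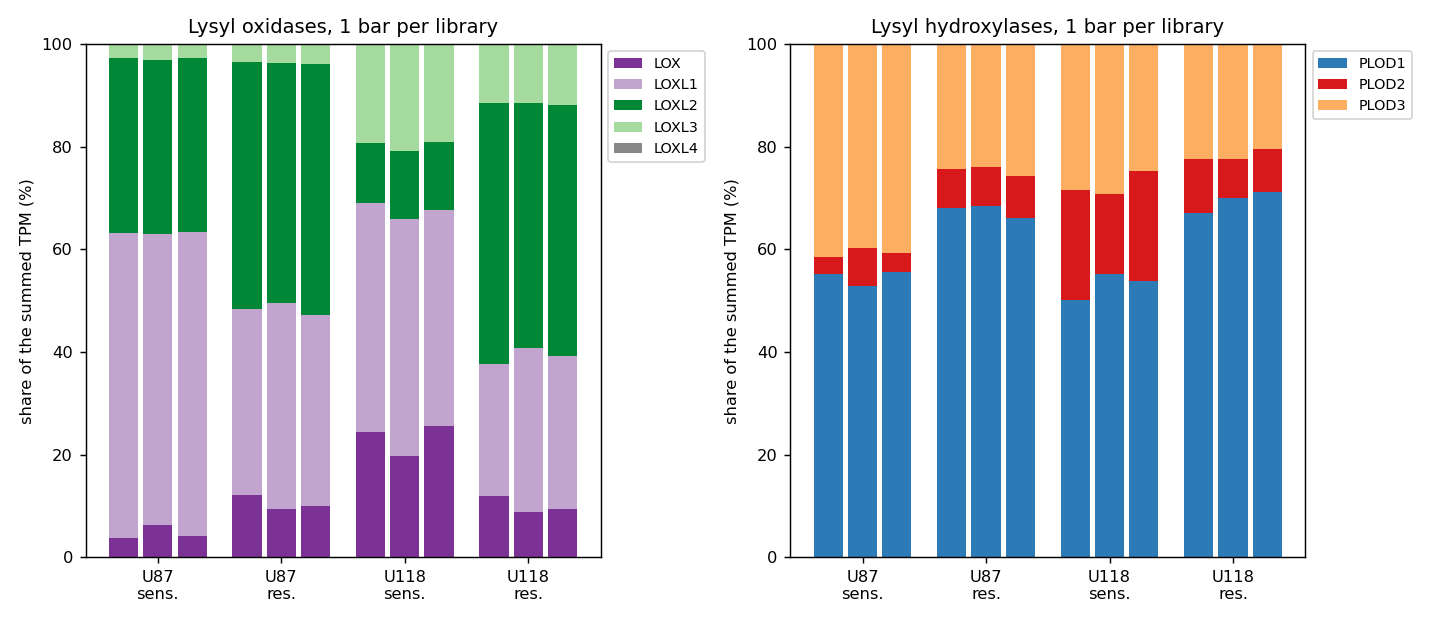
Share of each gene in the summed TPM (vertical axis, percent) of the 5 lysyl oxidases (left) and the 3 lysyl hydroxylases (right), with 1 bar per library in 4 groups. LOXL2 made up 46.8% to 50.9% of the lysyl oxidase TPM in the resistant libraries of both lines, and PLOD1 had the largest hydroxylase share in all 12 libraries.

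Among the lysyl hydroxylases no member was called in either line. PLOD2, which hydroxylates the telopeptide lysines, was at 10.3, 22.01 and 10.6 TPM in U87 sensitive and 27.9, 25.5 and 28.6 TPM in U87 resistant libraries. In U118 it was at 78.1, 63.4 and 78.8 TPM in sensitive and 54.0, 29.2 and 31.4 TPM in resistant libraries. The groups did not overlap in either line. The log2 fold changes of 0.97 (SE 0.28, adjusted p = 0.0300) and -0.97 (SE 0.27, adjusted p = 0.0147) lay just under the fold threshold. PLOD2 was called in U87 without sensitive replicate 2 (1.31), and in U118 without sensitive replicate 2 (-1.07) or without resistant replicate 1 (-1.24). Without any other single library its adjusted p in limma passed 0.05, at 0.0709 to 0.0976 in U87 and 0.0510 to 0.0630 in U118. Under median-ratio scaling it was called in U87 (1.22), whereas in U118 it was -0.42 with an adjusted p of 0.0709.

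PLOD1, which hydroxylates lysines of the triple helix, ranged from 155 to 173 TPM in U87 sensitive and from 229 to 247 TPM in U87 resistant libraries, and from 183 to 224 and 268 to 342 TPM in U118. All resistant libraries were above all sensitive ones, at log2 fold changes of 0.54 (adjusted p = 0.00147) in U87 and 0.53 (95% interval 0.06 to 1.00, adjusted p = 0.0582) in U118. Under median-ratio scaling the U118 value was 1.09 and called. PLOD3, which also adds glucose to galactosylhydroxylysine, ranged from 116 to 130 TPM in U87 sensitive and from 81.7 to 88.7 TPM in U87 resistant libraries (log2 fold change -0.49, adjusted p = 0.00324, and -0.23 with an adjusted p of 0.222 under median-ratio scaling). In U118 its groups overlapped (91.7 to 119 and 77.1 to 115 TPM), with a log2 fold change of -0.19 that changed sign under median-ratio scaling (0.37).

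Within the hydroxylase family PLOD1 had 54.5% ± 1.51 of the summed TPM in U87 sensitive and 67.5% ± 1.28 in U87 resistant libraries, and 53.1% ± 2.60 and 69.4% ± 2.16 in U118. In each line the groups did not overlap. The share of PLOD3 was 40.6% and 24.7% in U87 and 27.5% and 21.8% in U118. The share of PLOD2 was 4.82% and 7.81% in U87 and 19.4% and 8.83% in U118.

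SERPINH1 was at 109.8, 74.8 and 156 TPM in U87 sensitive and 122, 115 and 111 TPM in U87 resistant libraries. The sensitive libraries enclosed the resistant ones, and the log2 fold change of 0.09 had a 95% interval of -0.48 to 0.66 (adjusted p = 0.789). It changed sign without sensitive replicate 2 (-0.17). In U118 it was at 145, 104 and 157 TPM in sensitive and 60.2, 62.6 and 92.8 TPM in resistant libraries, with no overlap. The log2 fold change there was -0.91 (SE 0.25, adjusted p = 0.0160), below the fold threshold. It was -0.35 (adjusted p = 0.385) under median-ratio scaling and -0.71 (adjusted p = 0.0537) in TPM without mitochondrial genes.

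PCOLCE was at 132, 126 and 136 TPM in U87 sensitive and 80.8, 98.9 and 92.1 TPM in U87 resistant libraries, a log2 fold change of -0.53 (SE 0.09, adjusted p = 0.00445). In U118 it fell from 405, 464 and 396 TPM to 208, 160.4 and 153 TPM, with a log2 fold change of -1.28 (SE 0.21, adjusted p = 0.00113). The resistant libraries were below the sensitive ones in each line. Under median-ratio scaling the values were -0.27 and -0.73, neither called.

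**Figure D3:**
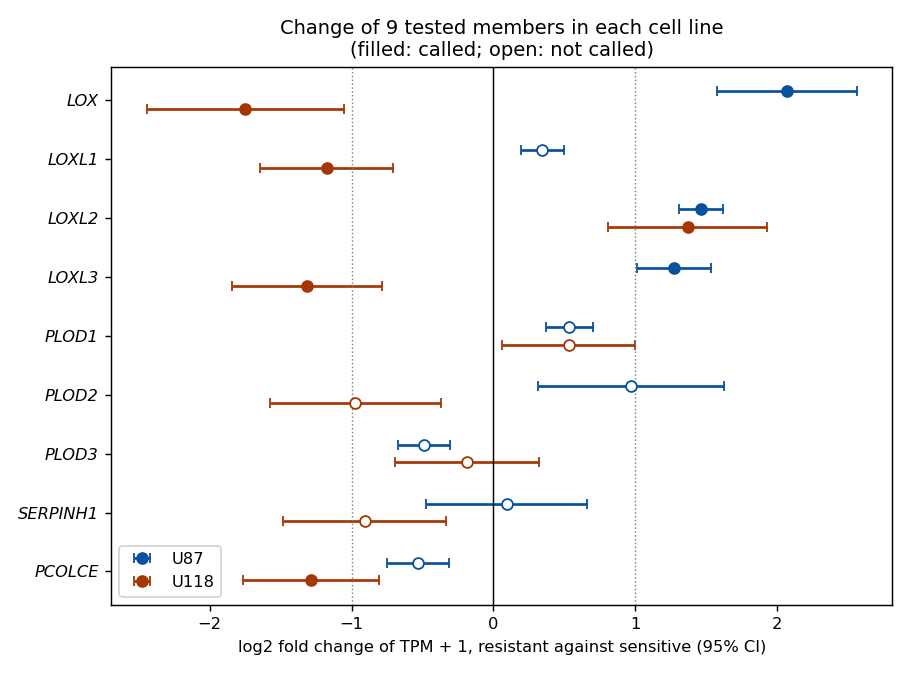
Log2 fold change of TPM + 1, resistant against sensitive (horizontal axis, points with 95% intervals), of the 9 tested members in U87 and U118; filled points passed the adjusted p and the fold threshold, and dotted lines mark a log2 change of 1 in size. LOX (2.07 and -1.75) and LOXL3 (1.27 and -1.31) lie on opposite sides of 0 in the lines, and LOXL2 (1.46 and 1.37) lies on the same side.

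By non-overlap, 6 tested members were higher in all U87 resistant libraries (LOX, LOXL1, LOXL2, LOXL3, PLOD1 and PLOD2) and 2 lower (PLOD3 and PCOLCE), where 13.6% and 39.8% of all genes were. In U118, 2 were higher (LOXL2 and PLOD1) and 6 lower (LOX, LOXL1, LOXL3, PLOD2, SERPINH1 and PCOLCE), where 15.7% and 42.9% of all genes were. With 3 libraries in each group the smallest two-sided p of an exact permutation test is 0.1, and no such p is printed.

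Whether the change differed between the lines was tested as an interaction in limma over all 12 libraries, as the U118 change minus the U87 change. The test called 5 members, LOX, LOXL1, LOXL3, PLOD2 and SERPINH1, all of them lower in U118 than in U87, where 18.5% of the 16382 genes tested were called in that direction and 30.5% in either. The difference was -3.82 for LOX (SE 0.40, adjusted p = 8.91e-06) and -2.58 for LOXL3 (SE 0.25, adjusted p = 4.28e-06). LOXL1 differed by -1.52 (SE 0.20, adjusted p = 5.61e-05) and PLOD2 by -1.94 (SE 0.40, adjusted p = 0.00208). SERPINH1 differed by -1.0 (SE 0.36, adjusted p = 0.0458), a call lost in 15 of 21 alternatives.

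For LOXL2 the difference was -0.09 with a 95% interval of -0.65 to 0.47, and for PLOD1 it was -0.01 with an interval of -0.43 to 0.42. These intervals limit the difference but do not show that the lines act alike. PLOD3 differed by 0.30 (adjusted p = 0.323) and PCOLCE by -0.75 (SE 0.21, adjusted p = 0.0128), under the threshold of 1. By distance on the log2(TPM + 1) scale, the mean level of the libraries labelled U118 resistant was nearest to U87 sensitive for LOX, LOXL2, SERPINH1 and PCOLCE and to U87 resistant for LOXL3, PLOD1, PLOD2 and PLOD3. LOXL1 was about as far from U118 sensitive (-1.17) as from U87 sensitive (-1.20).

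The substrates of these enzymes were described from fixed lists by their counts and medians. Of all genes tested, 3.03% were called higher and 7.79% lower in U87, and 8.64% and 26.6% in U118. Of 11 fibrillar collagens 5 were tested in each line, and 3 rose in U87 (median log2 fold change 1.03, beside -0.24 over all genes) while 3 fell in U118 (median -1.45, beside -0.52). Under median-ratio scaling 6 were tested in U87 and 5 were called higher, with COL1A2 and COL3A1 added. COL3A1, at 0.0709 and 1.19 TPM in sensitive and resistant cells, passed the filter only there. In U118, 2 were called lower and 1 higher (COL27A1, 1.33). COL1A1, a chain of type I collagen, was at 40.1 ± 2.48 and 96.2 ± 8.16 TPM in U87, sensitive and resistant, and at 393 ± 11.4 and 153 ± 72.7 TPM in U118. Its log2 fold changes were 1.24 (adjusted p = 0.000189) and -1.45 (adjusted p = 0.00408), the U118 call being lost under median-ratio scaling. COL5A2 rose by 1.03 in U87 and fell by 2.07 in U118, COL5A1 rose by 1.76 in U87 and COL1A2 fell by 1.73 in U118, all on the log2 scale.

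Partners of crosslinking in the matrix had the largest medians of the 7 lists. Of 12 such genes, 6 of the 10 tested rose in U87 (median 1.55) and 8 of the 11 tested fell in U118 (median -2.56), with the same counts under median-ratio scaling. FN1 encodes fibronectin, the scaffold on which collagen fibrils form, and was at 73.4 ± 4.87 and 889 ± 95.4 TPM in U87 and at 3314 ± 562 and 165 ± 146 TPM in U118 (log2 fold changes 3.58 and -4.65). The U118 resistant libraries held 334, 78.4 and 83.8 TPM, so replicate 1 sets much of that mean, and all 3 were far below the lowest sensitive library (2754 TPM). POSTN, which binds BMP1 and collagen, rose by 2.28 in U87 (0.393 ± 0.454 and 5.56 ± 0.510 TPM) and fell by 5.59 in U118 (51.3 ± 15.2 and 0.0516 ± 0.0894 TPM), on the log2(TPM + 1) scale. The small proteoglycan LUM rose by 1.75 in U87 and fell by 2.95 in U118. BGN rose by 1.99 in U87, and DCN, which encodes decorin, a proteoglycan that binds collagen fibrils, fell by 4.68 in U118.

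Other enzymes that act on collagen in the endoplasmic reticulum were listed too. Their counts, and those of the lists that follow, are to be read beside the shares of all genes called. These were 3.03% higher and 7.79% lower in U87, and 8.64% and 26.6% in U118. Of 15 such enzymes, 14 were tested in each line, with 1 rising in U87 and 1 rising and 2 falling in U118. The gene that rose in both lines was P4HA2, a subunit of prolyl 4-hydroxylase, at 94.5 ± 2.61 and 206 ± 3.84 TPM in U87 (log2 fold change 1.12, adjusted p = 7.75e-05) and 55.1 ± 10.5 and 162 ± 72.5 TPM in U118 (1.47, adjusted p = 0.00412). In U118 the prolyl 3-hydroxylase P3H2 fell by 3.18 on the log2 scale and FKBP10, a peptidyl-prolyl isomerase that acts with lysyl hydroxylase, by 1.03, a call lost under median-ratio scaling, where P4HA1 was called higher in U87.

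Of 15 genes of procollagen export and cleavage, 9 were tested in U87 and 1 rose (ADAMTS14, an N-proteinase, by 1.20 on the log2 scale). In U118, 10 were tested, with 1 rising (ADAMTS2, the main N-proteinase, by 1.47) and 4 falling. PCOLCE2, the paralog of PCOLCE, fell from 97.2 ± 34.6 to 5.87 ± 3.38 TPM there, a log2 fold change of -3.89 (adjusted p = 4.45e-05). MIA3, the cargo receptor TANGO1 that loads procollagen for export, fell by 1.59, and the coat component SEC23A by 1.28. Under median-ratio scaling 2 were called higher in U118, with BMP1 added (1.24), and 2 lower, MIA3 and PCOLCE2.

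Copper carriers, general chaperones and hypoxia genes were also listed, and their counts are to be read beside the shares of all genes given above. Of 5 genes of copper supply, 4 were tested in each line and 0 were called by limma, with 3 in U87 and 1 in U118 at an unadjusted p under 0.05. The share of all genes at that unadjusted p was not worked out. In U87, 9.43% of all genes were higher and 29.7% lower even at an adjusted p under 0.05 with no fold change threshold. Under median-ratio scaling SLC31A2, a copper transporter, was called higher in U118 (1.40, beside 0.93 and not called without it). Of 10 general chaperones of the endoplasmic reticulum, 1 rose in U87 (HSPA5, also known as BiP, by 1.02) and 2 fell in U118 (PDIA6 by 1.19 and HYOU1 by 1.09), of which the U118 calls were lost under median-ratio scaling, where SDF2L1 was called higher. Of 13 hypoxia reference genes, 12 were tested, with 2 rising and 0 falling in U87 (median 0.16) and 1 rising and 3 falling in U118 (median -0.56). NDRG1 rose by 1.29 in U87 and fell by 1.65 in U118. ALDOC, a glycolytic aldolase, rose by 1.10 in U87 and by 1.89 in U118. ADM fell by 2.09 and BNIP3 by 1.04 in U118, the latter call being lost under median-ratio scaling.

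**Figure D4:**
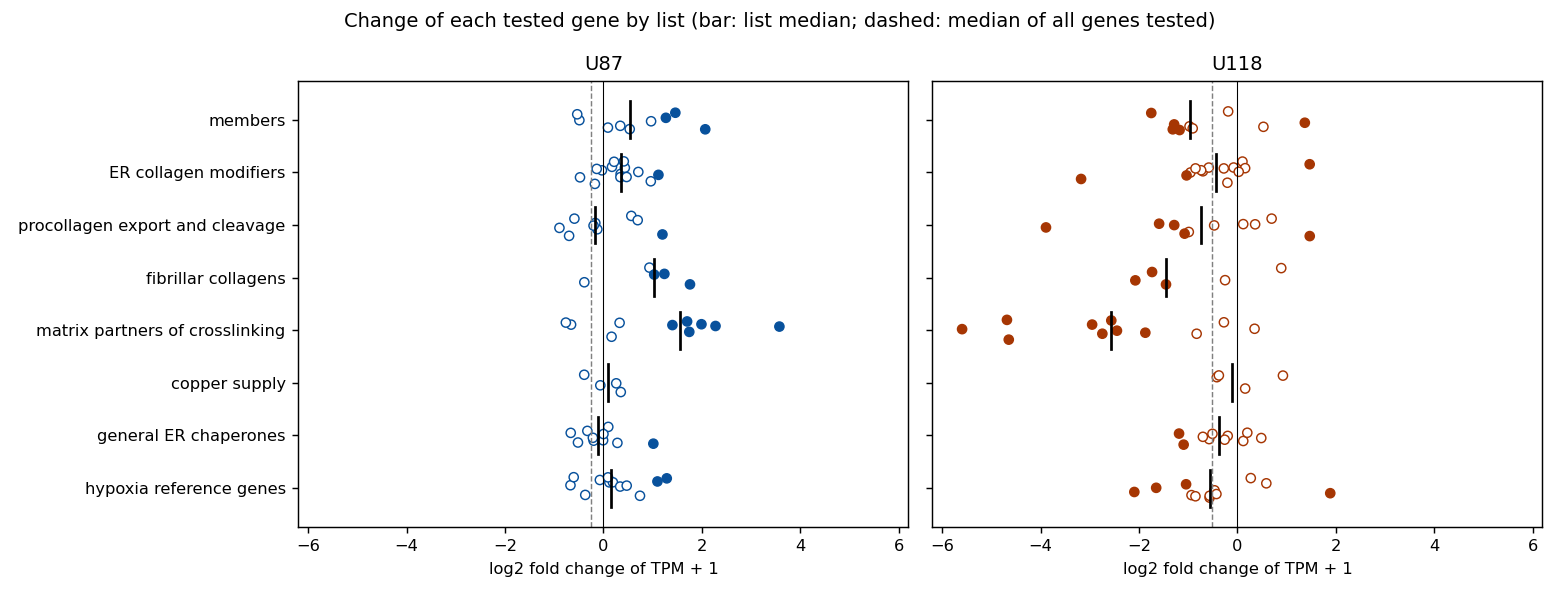
Log2 fold change of TPM + 1, resistant against sensitive (horizontal axis), of each tested gene of the members and 7 fixed lists in U87 (left) and U118 (right); filled points were called, black bars are list medians and the dashed line is the median of all genes tested. The fibrillar collagens (medians 1.03 and -1.45) and the matrix partners (1.55 and -2.56) lie on opposite sides of 0 in the lines.

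The genes whose log2(TPM + 1) followed each called member most closely were ranked by Pearson's r over the 12 libraries, among 13217 genes. The libraries fall into 4 groups, so r mostly reflects group levels and is given without a p. Nearest to LOX were SVEP1 (0.971), GPC6 (0.969) and PDZRN3 (0.967). Nearest to LOXL2 were PPP1R7 (0.984), BOC (0.979) and BMP1 (0.978), the last being the procollagen C-proteinase. Nearest to LOXL3 were H4C15 (0.995), COL1A1 (0.992) and PLXNA2 (0.987). Nearest to LOXL1 were CRABP2 (0.989), PLCD1 (0.982) and ADCY8 (0.980), and nearest to PCOLCE were DHRS2 (0.991), TNRC6B (0.990) and RBFA (0.989).

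In GENCODE release 29 on GRCh38, LOX (ENSG00000113083) lies on chromosome 5 at 122063195-122078360, LOXL1 (ENSG00000129038) on chromosome 15 at 73925989-73952137 and LOXL3 (ENSG00000115318) on chromosome 2 at 74532414-74555690. PLOD1 (ENSG00000083444) lies on chromosome 1 at 11934205-11975538, PLOD2 (ENSG00000152952) on chromosome 3 at 146069440-146163653 and PLOD3 (ENSG00000106397) on chromosome 7 at 101205977-101218420. SERPINH1 (ENSG00000149257) lies on chromosome 11 at 75562056-75572783, PCOLCE (ENSG00000106333) on chromosome 7 at 100602177-100608175, LOXL4 (ENSG00000138131) on chromosome 10 at 98247690-98268250 and LOXL2 (ENSG00000134013) on chromosome 8.

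Whether counting used strand is not given in the sources used here, so reads of a member and of an overlapping gene on the other strand cannot be told apart. LOXL1-AS1, antisense to LOXL1, was at 79.5 ± 2.14 and 42.6 ± 1.08 TPM in U87, sensitive and resistant, and at 111 ± 16.2 and 32.7 ± 6.22 TPM in U118. In U87 it thus stood lower in resistant cells, where LOXL1 stood higher (log2 fold change -0.88, adjusted p = 0.000241), and in U118 it fell with LOXL1 (-1.74, adjusted p = 0.000283). SRFBP1, opposite LOX, was at 3.79 and 3.12 TPM in U87 and 9.16 and 4.12 TPM in U118. DOK1 and HTRA2, opposite LOXL3, were not called in either line, and neither was ZNHIT1, opposite PLOD3. In U87, sensitive and resistant, DOK1 was at 41.5 and 32.3 TPM and HTRA2 at 55.2 and 33.2 TPM, above LOXL3 (8.96 and 23.0 TPM). In U118 DOK1 was at 40.8 and 27.3 TPM and HTRA2 at 79.7 and 48.8 TPM. HTRA2 was lower in resistant cells by limma, at -0.72 in U87 (adjusted p = 0.00423) and -0.68 in U118 (adjusted p = 0.0345), below the fold threshold. ENTPD4 overlaps LOXL2 on the same strand and was at 21.7 and 21.5 TPM in U87 and at 29.4 and 27.6 TPM in U118, while AC090197.1, opposite LOXL2, rose in U118 from 0.897 to 8.85 TPM (log2 fold change 2.39). PCOLCE-AS1 stayed at or below 1.46 TPM, and the genes opposite LOXL4 and PLOD2 at or below 0.161 TPM.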

How the data were processed

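Messenger RNA was sequenced from 12 libraries, 3 in each of 4 groups, which were taken from the sample labels. The authors deposited TPM values per gene (a length-scaled share of a fixed library total), 1 table per cell line with 58174 Ensembl identifiers. The submitters' processing notes name FastQC 0.11.2, Trimmomatic 0.36, HISAT2 2.0, bedtools 2.26.0 and GRCh38. The quantification tool, the annotation, the use of strand and the test are not given in the sources used here. TPM keep no read counts, so depth is unknown and errors are the spread between libraries. A rise of a few abundant genes lowers all other TPM.

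Values were transformed to log2(TPM + 1), which understates changes of low genes, and the lines were fitted separately by lmFit and trended eBayes of limma 3.58.1 (R 4.3.3), keeping genes that reached 1 TPM in 3 or more libraries of 6. The difference between the lines was fitted over 12 libraries (1 TPM reached in 3 or more). Calls needed a Benjamini-Hochberg adjusted p under 0.05 over all genes tested and a log2 change of at least 1 in size. The members and lists were chosen with earlier results of these data known. The genes named are the 10 members, genes overlapping them, up to 4 called genes with the largest change per list and line, and the 3 genes most correlated with each called member. THY1, ACTA2, S100A4, TAGLN, VIM, PTPRC and glial markers come from a fixed marker list. P4HA1, BMP1, COL3A1, COL27A1, SLC31A2, SDF2L1, ACTA2, S100A4 and TAGLN were named after their values were seen.

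Alternatives were an unfiltered table, only genes averaging 10 TPM or more, pseudocounts of 0.1 and 0.01, scaling by median ratios, TPM without mitochondrially encoded genes, a block for the replicate number, untrended eBayes, array weights, no fold change threshold, and each library left out. The fit was tested on simulated data. Start-site windows were read from RefSeq (GRCh38.p14), and positions are those of GENCODE release 29 (GRCh38). Python 3.11.15 with pandas 2.3.3 handled the tables and matplotlib 3.10.9 the figures.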

Additional observations from a re-analysis of the deposited data

Results flagged for a closer look

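The change with resistance differed between U87 and U118, by the interaction test in limma with Benjamini-Hochberg adjustment over 16382 genes, for 5 members. The same rule called 18.5% of all genes in the direction of these members and 30.5% in either. Given as the U118 log2 fold change minus that of U87, the difference was -3.82 for LOX (adjusted p = 8.91e-06), -2.58 for LOXL3 (adjusted p = 4.28e-06), -1.52 for LOXL1 (adjusted p = 5.61e-05), -1.94 for PLOD2 (adjusted p = 0.00208) and -1.0 for SERPINH1 (adjusted p = 0.0458). The first 4 were called under all 21 alternatives, and SERPINH1 was not. All of them use the libraries labelled U118 resistant, which stood nearer to the U87 libraries, and their part in these differences was not tested. With 3 libraries a group, no rule for single libraries that stand apart was applied to the members' values.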

How the results depend on the processing

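With no fold change threshold the members called in U87 were 6 higher and 2 lower in place of 3 and 0, against 9.43% and 29.7% of all genes. In U118 they were 1 higher and 6 lower in place of 1 and 4. No share of all genes is at hand for that rule in U118 or for the counts that follow, so these are not to be read as particular to the members. Median-ratio scaling gave 2 higher and 1 lower in U118 in place of 1 and 4. Leaving out each library gave 3 to 4 higher and 0 to 0 lower in U87, 1 to 1 higher and 4 to 6 lower in U118 and 4 to 5 members differing between the lines; the 6 came without U118 sensitive replicate 2. With the replicate number as a block the counts were 3 and 0 in U87, 1 and 4 in U118 and 5 between the lines, so no count changed. The deviations of libraries with the same number correlated at -0.0671 to 0.0113 in U87 and 0.0512 to 0.139 in U118, so the number was not taken as a pairing, although in U118 every library correlated best with its own number.

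Of the single member values under alternatives, 412 kept direction and side of the threshold, 12 gained and 19 lost the call and 16 changed sign. None of the sign changes was of a called value. SERPINH1 in U87 was -0.40 with array weights and -0.17 to 0.35 when each library was left out, the sign changing without sensitive replicate 2. PLOD3 in U118 was 0.37 under median-ratio scaling and 0.00884 without mitochondrial genes, and its difference between the lines was -0.0435 with array weights. The LOXL2 difference was 0.15 under median-ratio scaling and -0.34 to 0.0543 over the libraries left out. The PLOD1 difference was 0.24 under median-ratio scaling, 0.0540 without mitochondrial genes and -0.12 to 0.0708 over the libraries left out. The SERPINH1 difference lost its call in 15 of 21 alternatives, with adjusted p up to 0.748. The cause of these changes was not tested. The fit with array weights stopped before convergence. Depth is unknown, so what it limits cannot be given.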

Other observations

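Ratios within a library set the members against their substrate and partners without regard to scaling, and are given with no test. LOXL2 stood at 2.67 ± 0.138 times the TPM of COL1A1 in U87 sensitive and 3.09 ± 0.136 times in U87 resistant libraries (SD, n = 3), but at 0.131 ± 0.00104 and 0.948 ± 0.152 times in U118. LOX stood at 0.378 ± 0.134 and 0.675 ± 0.0834 times COL1A1 in U87 and at 0.242 ± 0.0394 and 0.191 ± 0.0203 times in U118. The ratio of LOXL2 to LOX was 7.51 ± 1.95 and 4.61 ± 0.541 in U87 and 0.551 ± 0.0992 and 4.96 ± 0.614 in U118, with the sensitive libraries above 1 in U87 and below 1 in U118.

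PCOLCE can be set against the proteinase it enhances. Its TPM were 4.04 ± 0.127 times those of BMP1 in U87 sensitive and 1.71 ± 0.252 times in U87 resistant libraries, and 19.6 ± 1.10 and 4.88 ± 0.605 times in U118. The resistant libraries were lower in each line with no overlap. Against its paralog PCOLCE2 it stood at 1.58 ± 0.222 and 2.07 ± 0.517 times in U87 and at 4.69 ± 1.496 and 34.3 ± 13.3 times in U118, where PCOLCE2 fell more than PCOLCE did.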
